A study of Mus musculus with 9 samples.

Results

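Messenger RNA of 7 genes of transforming growth factor beta (TGF-beta) signalling was examined in the aorta of Apoe-/- mice, which lack apolipoprotein E and develop atherosclerosis. The genes are the rows of the deposited table named Tgfb1, Tgfb2, Tgfb3, Tgfbr1, Tgfbr2, Ltbp2 and Tgfbi, and all 7 were found among 54532 genes. They were taken by name. Mice were 6 to 8 weeks old when a regimen of 24 weeks began. The CD group received chow diet, the HFD group a high fat diet, and the HFD_IO group the same diet plus ammonium iron(III) citrate injected intraperitoneally. Every group carried the Apoe-/- genotype, and each held 3 libraries, labelled as separate aortas. The title of the series names iron-overload in atherosclerosis as its subject. The sources used here do not give the iron dose, the sex or the number of mice behind each aorta, so p-values measure the spread between these aortas.

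TGF-beta is secreted in a latent form, in which the mature dimer stays bound to its own propeptide. The propeptide is linked to a latent TGF-beta binding protein, which anchors the complex to fibrillin in the matrix. Integrins, thrombospondin and proteases release the dimer. It then binds the type II receptor (Tgfbr2), which recruits and phosphorylates the type I receptor (Tgfbr1), and the type I receptor phosphorylates the signal carriers Smad2 and Smad3. In the artery wall the pathway is known for promoting matrix synthesis and smooth muscle differentiation and for restraining inflammation.

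The authors deposited FPKM, that is, fragments per kilobase of a gene adjusted for library depth, and values are given as mean ± SD with n = 3. Whole reads could be read back from them, 16660963 to 18308450 per library, and the 7 genes held 871 to 10720 reads in each library, so counting error was small beside the spread between aortas. Changes are differences of log2(FPKM + 1), with the standard error (SE) and adjusted p of limma fitted on 13883 genes. The threshold was an adjusted p of 0.05. Apoe, the disrupted gene, was listed at 10.9 to 14.5 FPKM in CD aortas, 9.73 to 15.1 in HFD and 17.5 to 21.9 in HFD_IO. Gene totals do not separate intact from truncated transcripts, so these values do not check the genotype. Of the defining markers of the aortic wall, Acta2 was at 1863 FPKM or more, Myh11 at 240 or more, Pecam1 at 63.7 or more and Pi16 at 61.2 or more in every library, while the row named Tagln was at 9.95 to 29.8. Rescaling to TPM, in which all libraries have the same sum, gave a median change over all genes of -0.26 in HFD against CD, 0.12 in HFD_IO against HFD and -0.21 in HFD_IO against CD. It turned 3030 higher and 2440 lower genes into 1009 and 4979 in the first comparison, 1956 and 2013 into 2323 and 1141 in the second, and 2427 and 2089 into 1549 and 3905 in the third.

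Tgfb1 is the isoform of immune and many other cells. Tgfb2 and Tgfb3 are best known from development and the connective tissues. In HFD_IO against CD, Tgfb1, Ltbp2, Tgfbr1 and Tgfbr2 were higher, and Tgfb2 and Tgfb3 were lower. The stretches of up to 200 bases before the annotated starts of 3 of these genes are shown. They are from RefSeq on GRCm38.p6, chr7:25686802-25687001 on the plus strand for Tgfb1, chr1:186705990-186706189 on the minus strand for Tgfb2 and chr12:84876533-84876732 on the minus strand for Ltbp2. Capitals mark every match, on either strand, to the GC box GGGCGG, the Smad box CAGAC, the CCAAT box CCAAT, the TATA box TATAAA and the AP-1 site TGANTCA.
Tgfb1: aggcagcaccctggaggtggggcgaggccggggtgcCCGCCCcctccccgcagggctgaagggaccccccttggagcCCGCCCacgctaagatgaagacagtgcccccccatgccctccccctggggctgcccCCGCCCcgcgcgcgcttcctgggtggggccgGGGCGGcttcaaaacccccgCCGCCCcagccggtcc
Tgfb2: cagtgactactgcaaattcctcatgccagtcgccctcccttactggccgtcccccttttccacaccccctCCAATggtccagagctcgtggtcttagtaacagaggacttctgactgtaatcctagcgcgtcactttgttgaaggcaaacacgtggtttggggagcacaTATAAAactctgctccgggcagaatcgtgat
Ltbp2: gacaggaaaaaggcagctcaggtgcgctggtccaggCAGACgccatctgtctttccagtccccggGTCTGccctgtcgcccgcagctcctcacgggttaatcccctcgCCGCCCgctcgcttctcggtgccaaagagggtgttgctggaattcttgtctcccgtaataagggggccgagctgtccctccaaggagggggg
The Tgfb1 stretch held 5 GC boxes and none of the other motifs. The Tgfb2 stretch held 1 TATA box, which began 31 bases before the end of the stretch, and 1 CCAAT box. The Ltbp2 stretch held 2 Smad boxs and 1 GC box. Among 32851 RefSeq promoter windows of 200 bases, 31.0% held the GC box, 35.5% the Smad box, 29.3% the CCAAT box, 9.96% the TATA box and 5.48% the AP-1 site. RefSeq entries matched 6 of the 7 genes. Of the stretches not shown, that at the annotated start of Tgfbr1 held 2 GC boxes and 2 CCAAT boxes. That of Tgfbr2 held 1 Smad box and 2 CCAAT boxes. The Tgfbi stretch held 2 Smad boxes and 1 GC box, the same as Ltbp2, while Tgfbi was not past the threshold in any comparison. The GC content was 77.5% for Tgfb1, 52.5% for Tgfb2 and 63.5% for Ltbp2, beside a median of 53.0% over all windows. A match describes the letters and does not show a bound site.

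The first set of values concerns the 3 ligands. Tgfb3 was the most abundant of them in chow aortas and Tgfb1 in aortas with iron. Tgfb1 (ENSMUSG00000002603, chromosome 7, 25687002 to 25705077, plus strand, GRCm38) was at 14.6, 17.4 and 18.5 FPKM in CD aortas, 29.5, 28.9 and 23.4 in HFD, and 51.2, 53.4 and 60.9 in HFD_IO. The groups did not overlap, and the lowest HFD value was in HFD_3. Its mean was 16.9 ± 2.03 in CD, 27.3 ± 3.34 in HFD and 55.2 ± 5.06 in HFD_IO. Tgfb1 rose by 0.66 in HFD against CD (SE 0.13, adjusted p = 0.00497), by 0.99 in HFD_IO against HFD (SE 0.13, adjusted p = 0.00175) and by 1.66 in HFD_IO against CD (SE 0.13, adjusted p = 4.48e-05). As a ratio of mean FPKM, the level was 1.62 times that of CD in HFD and 3.27 times in HFD_IO. Both comparisons with HFD_IO kept the call at all 22 alternative settings, and the first lost it after rescaling to TPM (0.29, adjusted p = 0.203).

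Tgfb3 (ENSMUSG00000021253, chromosome 12, 86056745 to 86079041, minus strand) went the other way. Its values were 88.9, 108 and 119 FPKM in CD aortas, 38.7, 41.0 and 51.8 in HFD, and 34.8, 31.9 and 38.0 in HFD_IO. Every CD aorta lay above every other aorta, and the highest HFD_IO value was just under the lowest HFD value. Tgfb3 fell by 1.24 on the log2 scale in HFD against CD (SE 0.15, adjusted p = 0.000809), from 105 ± 15.1 to 43.8 ± 6.97 FPKM, so that its CD level was 2.40 times that in HFD. In HFD_IO it was at 34.9 ± 3.06, a change of -0.31 from HFD that did not pass the test (SE 0.15, 95% interval -0.65 to 0.02, adjusted p = 0.142). It fell by 1.56 in HFD_IO against CD (SE 0.15, adjusted p = 9.62e-05). The calls against CD held at all 22 alternative settings. On the opposite strand the gene Ttll5 overlaps Tgfb3 and held 282 to 503 reads, beside 1882 to 7311 for Tgfb3. Whether counting used strand is unknown, so reads in the shared part cannot be told apart.

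Tgfb2 (ENSMUSG00000039239, chromosome 1, 186622792 to 186705989, minus strand) was at 14.6, 16.9 and 16.0 FPKM in CD aortas, 14.1, 14.5 and 16.4 in HFD, and 11.5, 8.63 and 11.3 in HFD_IO. The CD and HFD aortas overlapped, and all 3 HFD_IO aortas lay below them. The change in HFD against CD was -0.07 (SE 0.12, 95% interval -0.35 to 0.20, adjusted p = 0.654), and after rescaling to TPM it was -0.44 (adjusted p = 0.0244). Tgfb2 fell by 0.49 in HFD_IO against HFD (SE 0.12, adjusted p = 0.018), from 15.0 ± 1.21 to 10.5 ± 1.58 FPKM. It fell by 0.56 in HFD_IO against CD (SE 0.12, adjusted p = 0.00712). The last call held at all 22 alternative settings. The HFD_IO against HFD call did not survive leaving out HFD_3 (adjusted p = 0.0649) or HFD_IO_2 (0.0532). It was not past the threshold after TPM rescaling (0.0898) or with the mean of the adipocyte (0.0553) or skeletal muscle markers (0.122) as a covariate. With these 2 covariates the change itself was not smaller, at -0.58 and -0.50 beside -0.49. The summed FPKM of 10 skeletal muscle markers was 7.51 to 13.2 in CD, 7.39, 106 and 64.9 in HFD_1, HFD_2 and HFD_3, and 4.73 to 15.4 in HFD_IO.

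**Figure D1:**
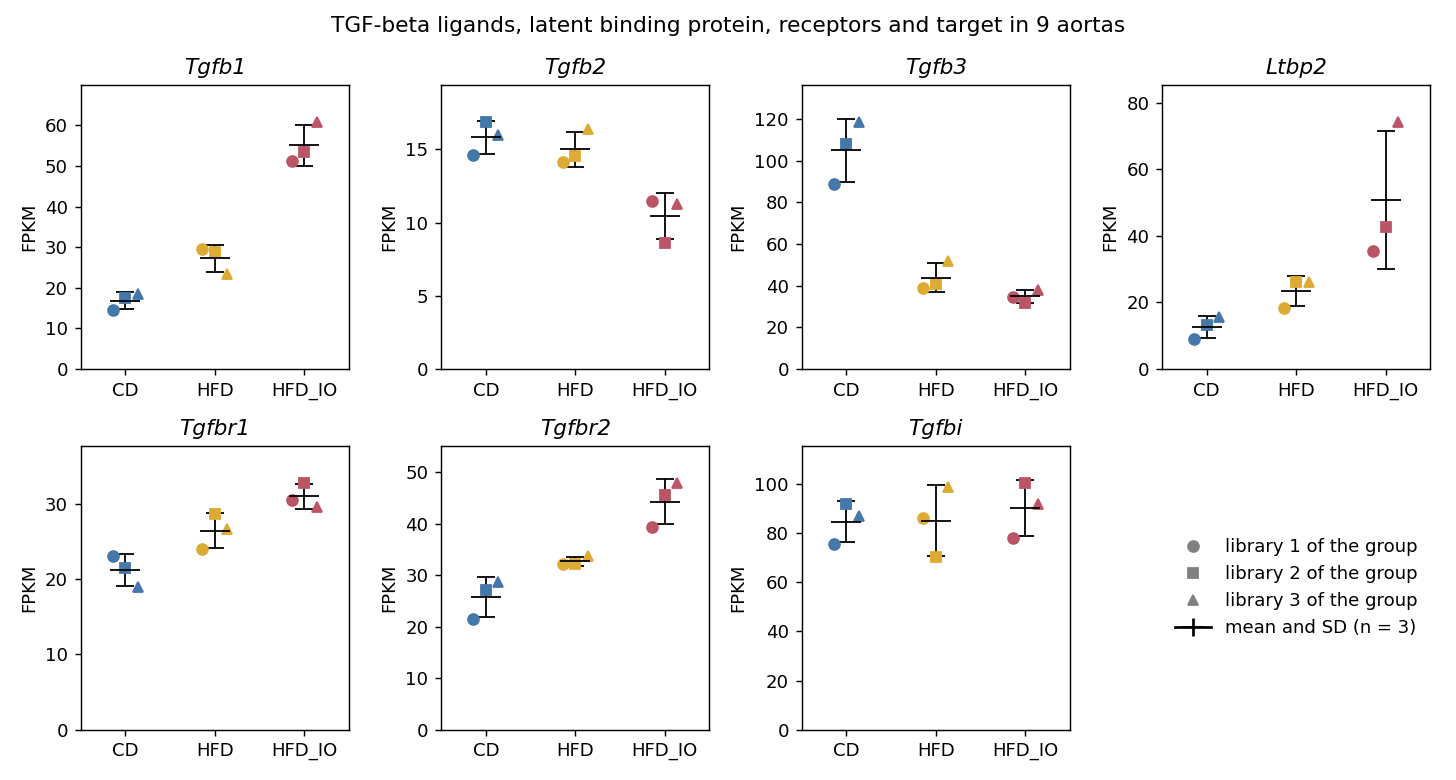
FPKM of each gene in every library (vertical axes, starting at 0) by group (horizontal axes). Points are single libraries and black bars are the mean and SD of 3. The 3 Tgfb1 groups are separate, from 14.6 to 18.5 in CD up to 51.2 to 60.9 in HFD_IO, while Tgfb3 stands at 88.9 to 119 in CD and at most 51.8 elsewhere, and Tgfbi overlaps in all groups.

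Within a library, shares of the 3 ligands do not depend on how libraries were scaled to each other. Tgfb1 made up 12.4%, 12.3% and 12.1% of the summed ligand FPKM in CD aortas, 35.8%, 34.2% and 25.6% in HFD, and 52.6%, 56.9% and 55.3% in HFD_IO. Tgfb3 made up 75.3%, 75.9% and 77.5% in CD, 47.0%, 48.6% and 56.5% in HFD, and 35.7%, 34.0% and 34.5% in HFD_IO. For both genes the 3 groups were separate. The mean Tgfb1 share was thus 12.2% ± 0.134, 31.9% ± 5.51 and 54.9% ± 2.18 in CD, HFD and HFD_IO, and that of Tgfb3 was 76.2% ± 1.13, 50.7% ± 5.10 and 34.7% ± 0.878. The Tgfb2 share was 11.6% ± 0.997 in CD, 17.4% ± 0.412 in HFD and 10.4% ± 1.30 in HFD_IO, and the values of CD and HFD_IO overlapped. The summed level of the ligands was 138 ± 18.0 FPKM in CD aortas, 86.1 ± 4.85 in HFD and 100.5 ± 8.52 in HFD_IO. An exact two-sided permutation test gave p = 0.1 for each of the separate comparisons of shares, the smallest that 3 against 3 allows, and an adjusted p of 0.129 over 18 tests of 6 ratios, so no share could pass the threshold. The Tgfb2 share in HFD_IO against CD had an exact permutation p of 0.2.

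**Figure D2:**
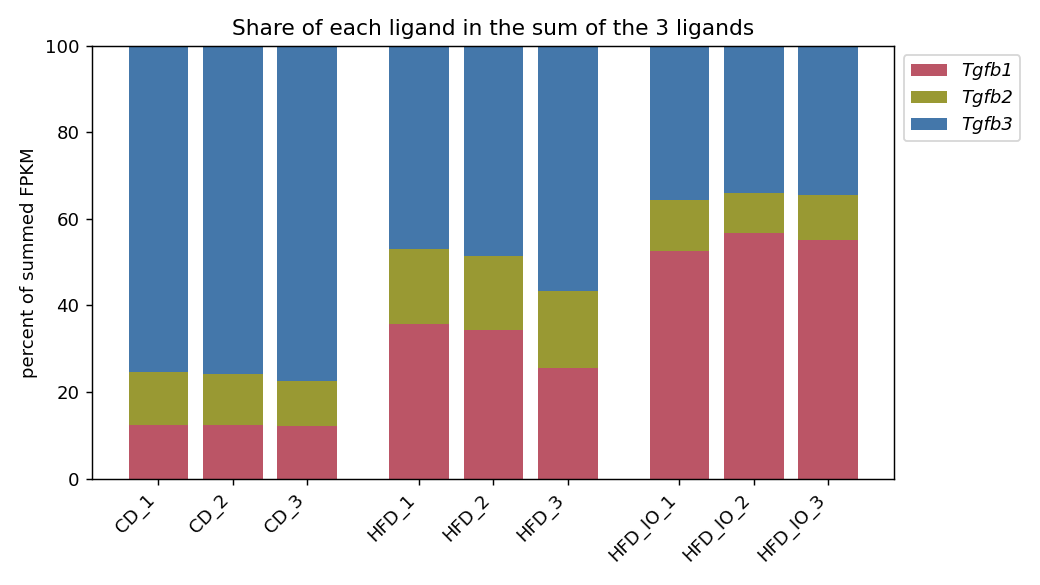
Share of Tgfb1, Tgfb2 and Tgfb3 in their summed FPKM (vertical axis, percent) in each of the 9 libraries (horizontal axis). The Tgfb1 share is 12.1% to 12.4% in CD, 25.6% to 35.8% in HFD and 52.6% to 56.9% in HFD_IO.

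Sums over marker lists were set beside the ligands, and they took different courses over the 3 groups. The summed FPKM of 12 macrophage markers was 623 to 719 in CD, 3055 to 5100 in HFD and 4965 to 8503 in HFD_IO, with 0 markers at 0 in every library. Cd68, a macrophage lysosomal protein, ranged from 21.3 to 420 FPKM and Adgre1, the F4/80 antigen, from 7.17 to 71.9. HFD_3, with the lowest Tgfb1 share of its group, also had the lowest macrophage sum of the group, at 3055. Much of that sum was Lyz2, at 1674 FPKM in HFD_3 against 3281 in HFD_1 and 3208 in HFD_2. Cd68, Tyrobp, Fcer1g, C1qa, C1qb and Aif1 were also lowest in HFD_3 within the group. Adgre1, Csf1r, Cd14 and Mrc1 were not, and Itgam was highest there (4.16 against 2.81 and 2.40). The sum of 10 adipocyte markers was the highest of the group in HFD_3 at 3177, against 1232 and 1285 in the other HFD aortas. The sum of 10 contractile smooth muscle markers was 6932 to 7915 in CD, 9575 to 11880 in HFD and 3342 to 5561 in HFD_IO. The sum of 10 endothelial markers was 459 to 688, 159 to 284 and 321 to 367, and that of 6 platelet markers 40.7 to 78.8, 60.2 to 90.5 and 49.9 to 54.4. For 8 T cell markers it was 7.86 to 45.8, 8.95 to 42.0 and 8.01 to 28.0. For 10 fibroblast markers it was 1907 to 2128, 2429 to 3356 and 1730 to 2146. That sum joins markers that moved apart, with 2 higher, 4 lower and 4 not past the threshold in HFD_IO against CD. Mean Lum was 50.9 FPKM in CD and 419 in HFD_IO, and mean Clec3b was 395 and 155. The part of these cell types in the changes of the 7 genes and of the pathway genes described below was not tested. In bulk tissue fewer cells of a type cannot be told apart from less RNA per cell.

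Ltbp2 encodes a fibrillin-binding matrix protein of the latent binding protein family that, unlike its relatives, does not bind latent TGF-beta. The gene (ENSMUSG00000002020, chromosome 12, 84783212 to 84876532, minus strand) was at 9.13, 13.2 and 15.6 FPKM in CD aortas, 18.3, 26.0 and 26.1 in HFD, and 35.5, 42.5 and 74.2 in HFD_IO. The groups did not overlap, and HFD_IO_3 stood above the rest. The sum of 9 chondrocyte markers was also highest in that library, at 488 FPKM against 155 and 167 in the other HFD_IO aortas, 23.8 to 84.1 in HFD and 3.87 to 6.17 in CD. Much of that sum was Chad, at 307 FPKM in HFD_IO_3 against 86.4 in HFD_IO_1 and 98.8 in HFD_IO_2. Col10a1 was highest in HFD_IO_1 (32.0 against 26.4 in HFD_IO_3), and the other listed markers were highest in HFD_IO_3. Ltbp2 rose by 1.88 in HFD_IO against CD (SE 0.28, adjusted p = 0.00111), from 12.6 ± 3.27 to 50.7 ± 20.6 FPKM, or 4.01 times. This call held at all 22 alternative settings, and without HFD_IO_3 the change was 1.58. Ltbp2 rose by 0.86 in HFD against CD (SE 0.28, adjusted p = 0.0395) and by 1.03 in HFD_IO against HFD (SE 0.28, adjusted p = 0.0263). The first of these calls was lost without CD_1 (0.107), CD_2 (0.0776), HFD_2 (0.111), HFD_3 (0.108) or HFD_IO_2 (0.0515), and the second without HFD_1 (0.0744), HFD_3 (0.0542), HFD_IO_2 (0.0502) or HFD_IO_3 (0.0623). With no filter on low values (0.0905 and 0.0696) and with the adipocyte (0.173 and 0.11) or skeletal muscle covariate (0.284 and 0.0942) both were lost, and the first also after rescaling to TPM (0.48, adjusted p = 0.173) and quantile normalization (0.0715). With the adipocyte and skeletal muscle covariates the first change was 0.80 and 0.63. The second was 1.08 and 1.26, not smaller than 1.03.

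The next genes are the receptors. Tgfbr2 (ENSMUSG00000032440, chromosome 9, 116084293 to 116175360, minus strand), the receptor that binds the ligand, was at 21.5, 27.1 and 28.8 FPKM in CD aortas, 32.3, 32.2 and 33.7 in HFD, and 39.4, 45.6 and 48.0 in HFD_IO. The groups did not overlap. Tgfbr2 rose by 0.76 in HFD_IO against CD (SE 0.13, adjusted p = 0.00174), from 25.8 ± 3.81 to 44.3 ± 4.42 FPKM, and kept that call at all 22 alternative settings. Its change in HFD against CD was 0.34 (SE 0.13, 95% interval 0.06 to 0.63, adjusted p = 0.0556), which became 0.48 once each library's trend on gene length was removed (adjusted p = 0.00938) and -0.04 after rescaling to TPM (0.845). Tgfbr2 rose by 0.42 in HFD_IO against HFD (SE 0.13, adjusted p = 0.0344). This difference missed the threshold without HFD_1 (0.0732), HFD_2 (0.0892), HFD_3 (0.0742), HFD_IO_2 (0.0959) or HFD_IO_3 (0.102). It was also lost with no filter on low values (0.0618), after removal of the length trend, which left 0.27 (0.0969), and with either covariate (0.13 and 0.162). With either covariate the change was 0.45, not smaller than 0.42.

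Tgfbr1 (ENSMUSG00000007613, chromosome 4, 47353222 to 47414931, plus strand), the kinase that phosphorylates Smad2 and Smad3, was at 23.1, 21.5 and 19.0 FPKM in CD aortas, 24.0, 28.7 and 26.7 in HFD, and 30.6, 32.8 and 29.6 in HFD_IO. The groups again did not overlap. Tgfbr1 rose by 0.53 in HFD_IO against CD (SE 0.11, adjusted p = 0.00506), from 21.2 ± 2.09 to 31.0 ± 1.66 FPKM, a call that held at 21 of 22 alternative settings and was lost after rescaling to TPM (0.30, adjusted p = 0.0544). The change in HFD_IO against HFD was 0.22 (SE 0.11, 95% interval -0.02 to 0.46, adjusted p = 0.147), and it passed the test after rescaling to TPM (0.37, adjusted p = 0.0367) and quantile normalization (0.34, 0.0438). In HFD against CD Tgfbr1 was past the threshold at 0.31 (SE 0.11, adjusted p = 0.0469), but only 7 of 22 alternative settings kept that call. It was lost when any of CD_2, CD_3, HFD_2, HFD_3, HFD_IO_1, HFD_IO_2 and HFD_IO_3 was left out, with adjusted p of 0.0604 to 0.166. It was also lost with no filter (0.0631), quantile normalization (0.11, with 0.456), no variance trend (0.0526), voom on the recovered reads (0.0511), a fit of the 2 groups alone (0.0844) and either covariate (0.23 with 0.275, and 0.19 with 0.366), and after rescaling to TPM the change was -0.07 (0.629). The log2 ratio of Tgfbr2 to Tgfbr1 within a library was 0.28 ± 0.36 in CD, 0.31 ± 0.13 in HFD and 0.51 ± 0.17 in HFD_IO, and the groups overlapped (exact permutation p = 0.8, 0.2 and 0.4 in the 3 comparisons).

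Ligand and receptor can also be set side by side within a library. The log2 ratio of Tgfb1 to Tgfbr2, both per length, was -0.56, -0.63 and -0.63 in CD, -0.13, -0.16 and -0.53 in HFD, and 0.38, 0.23 and 0.34 in HFD_IO. Tgfb1 was thus below its receptor in every CD and HFD aorta and above it in every HFD_IO aorta, and HFD_3 lay next to the CD aortas. The difference of means was 0.34 in HFD against CD and 0.59 in HFD_IO against HFD, each with an exact permutation p of 0.1.

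Tgfbi encodes a secreted adhesion protein of the matrix that is named for its induction by TGF-beta. The gene (ENSMUSG00000035493, chromosome 13, 56609523 to 56639562, plus strand) was at 75.5, 91.7 and 86.9 FPKM in CD aortas, 86.2, 70.2 and 98.9 in HFD, and 77.9, 101 and 92.1 in HFD_IO. The values overlapped in all groups. The change was 0.00 in HFD against CD (-0.0030 before rounding, SE 0.15, 95% interval -0.35 to 0.35, adjusted p = 0.99), 0.09 in HFD_IO against HFD (SE 0.15, interval -0.26 to 0.44, adjusted p = 0.693) and 0.09 in HFD_IO against CD (SE 0.15, interval -0.26 to 0.43, adjusted p = 0.707). After quantile normalization Tgfbi was lower in HFD than in CD (-0.43, adjusted p = 0.0398). Relative to Ltbp2 it was at a log2 ratio of 2.77 ± 0.29 in CD, 1.86 ± 0.40 in HFD and 0.90 ± 0.51 in HFD_IO, and these groups did not overlap (exact permutation p = 0.1 in each comparison).

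**Figure D3:**
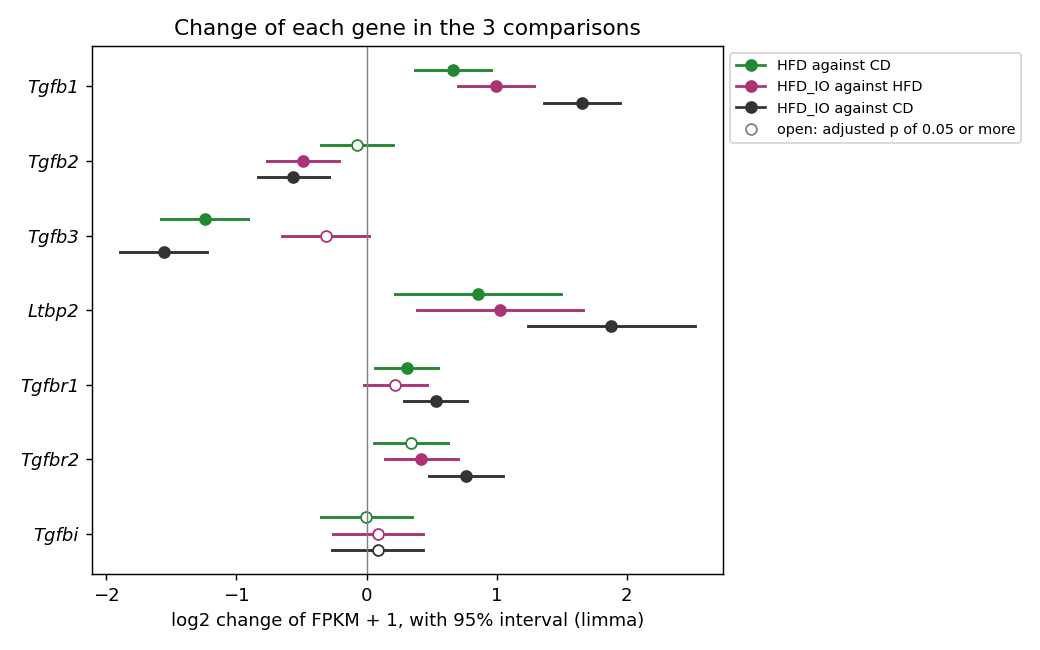
Log2 change of FPKM + 1 (horizontal axis) of each gene in the 3 comparisons, with 95% intervals from limma; filled points passed an adjusted p of 0.05. Tgfb1 and Ltbp2 lie to the right of 0 in every comparison, Tgfb3 and Tgfb2 to the left, and the Tgfbi points lie at -0.00, 0.09 and 0.09.

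Counted together, 3 of the 7 genes were higher and 1 was lower in HFD against CD, where 39.4% of all genes tested were past the threshold (21.8% higher and 17.6% lower). In HFD_IO against HFD 3 were higher and 1 lower, where 28.6% of all genes were past it (14.1% higher and 14.5% lower). In HFD_IO against CD 4 were higher and 2 lower, where 32.5% were past it (17.5% higher and 15.0% lower). Groups did not overlap for 5, 6 and 6 of the 7 genes, beside 50.7%, 48.5% and 47.0% of all genes. The comparisons share groups and are not independent. The share of the 7 genes past the threshold was 57.1%, 57.1% and 85.7%, and nothing is read from it beyond the single genes.

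The genes whose pattern over the 9 libraries was most like that of each gene were found by Pearson's r of log2(FPKM + 1) among 11820 other protein-coding genes. The libraries fall into 3 groups, so r mostly reflects group means and is given as a description. For Tgfb1 they included the taurine transporter gene Slc6a6 (0.992) and Rasa3 (0.991). For Ltbp2 they were Exoc4 (0.990), Synm (0.988) and the cartilage matrix gene Chad (0.978), and for Tgfbr2 they were Plxnb2 (0.993), Scara3 (0.988) and Slc35e4 (0.986). For Tgfb3 they were Ppip5k1 (0.990), Plekha5 (0.981) and Golim4 (0.977), and for Tgfb2 the chondroitin sulfate enzyme gene Csgalnact1 (0.991), Lims2 (0.988) and Kcnc4 (0.983). For Tgfbr1 they were the chaperone gene Canx (0.987), Rac1 (0.982) and Pip4k2a (0.976), and for Tgfbi no gene exceeded Nrip1 (0.934).

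Other genes of the pathway were described by role. The first list holds 22 genes of latency and activation, of which 20 passed the filter on low values. In HFD against CD 6 were higher and 3 lower (median 0.25, beside 0.06 over all genes tested), in HFD_IO against HFD 7 and 3 (median 0.35, beside 0.00), and in HFD_IO against CD 8 and 1 (median 0.29, beside -0.01). These were 45%, 50% and 45% of the genes tested in the list, beside 39.4%, 28.6% and 32.5% of all genes. Nrros, which tethers latent TGF-beta to the surface of myeloid cells, was at 4.57, 4.29 and 4.52 FPKM in CD aortas, 11.0, 12.0 and 7.29 in HFD, and 18.4, 19.5 and 16.5 in HFD_IO. Its groups did not overlap, and its lowest HFD value was in HFD_3, as for Tgfb1. Nrros rose by 1.00 in HFD against CD (adjusted p = 0.00214) and by 1.81 in HFD_IO against CD (adjusted p = 6.83e-05).

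Mmp14 and Plau encode proteases of the latency and activation list, and both rose in HFD_IO against HFD. Mmp14, a membrane-bound matrix metalloproteinase, was at 15.2, 16.5 and 19.7 FPKM in CD aortas, 24.9, 21.1 and 14.8 in HFD, and 51.8, 66.4 and 56.2 in HFD_IO, so that only the HFD_IO aortas stood apart. Mmp14 rose by 1.50 in HFD_IO against HFD (adjusted p = 0.00152) and by 1.71 against CD (adjusted p = 0.000197). Plau, the urokinase that activates plasmin, rose at each step, by 1.30 in HFD against CD (adjusted p = 0.00762) and by 1.23 in HFD_IO against HFD (adjusted p = 0.0133), from 4.70 ± 0.846 FPKM in CD to 13.6 ± 5.24 in HFD and 32.5 ± 8.66 in HFD_IO. With the adipocyte or skeletal muscle covariate the second step of Plau was not past the threshold (0.118 and 0.166). Thbs1, thrombospondin 1, which activates latent TGF-beta by binding its propeptide, fell by 0.98 in HFD against CD (adjusted p = 0.00627) and rose by 1.12 in HFD_IO against HFD (adjusted p = 0.00572). It was at 69.3 ± 17.7, 34.1 ± 5.17 and 75.0 ± 9.90 FPKM in CD aortas, HFD and HFD_IO. With the skeletal muscle covariate both Thbs1 calls were lost (0.0754 and 0.0773), and with the adipocyte covariate the first (0.0525).

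Among the binding proteins that do hold latent TGF-beta, the most abundant was lower in HFD_IO than in CD. Ltbp4 was at 299, 501 and 550 FPKM in CD aortas, 311, 247 and 281 in HFD, and 167, 164 and 270 in HFD_IO. It fell by 1.16 in HFD_IO against CD (SE 0.27, adjusted p = 0.00961), and the CD library CD_1 lay among the HFD values. Ltbp1 was at 34.5 ± 5.49 FPKM in CD aortas and 47.1 ± 5.70 in HFD, and fell by 0.88 in HFD_IO against HFD to 25.6 ± 7.29 (SE 0.20, adjusted p = 0.0121), a call not past the threshold with either covariate (0.0594 and 0.12). Ltbp3 was at 112 ± 26.3, 120 ± 6.60 and 102 ± 21.2 FPKM (adjusted p = 0.643, 0.36 and 0.651 in the 3 comparisons). Ltbp2 therefore had the lowest FPKM of the 4 family members in CD and in HFD, and exceeded Ltbp1 in every HFD_IO aorta.

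Integrin subunits that bind the propeptide differed in direction. Itgb1 rose by 0.72 in HFD against CD (adjusted p = 0.0048) and was 0.53 lower in HFD_IO than in HFD (adjusted p = 0.0235). Both changes were smaller after rescaling to TPM (0.33 with 0.121, and -0.37 with 0.116) and after quantile normalization (0.23 with 0.284, and -0.17 with 0.444), and leaving out HFD_2, HFD_3, HFD_IO_1 or HFD_IO_2 ended the second call (0.0577 to 0.0785). Itga8, a smooth muscle integrin subunit, fell by 1.08 in HFD_IO against HFD (adjusted p = 0.0106), and the skeletal muscle covariate ended that call (0.115). Itgb3 and the fibrillin gene Fbn1 were lower in HFD than in CD by -0.66 (adjusted p = 0.0233) and -0.61 (0.0345). The Itgb3 call was lost without CD_2, CD_3 or HFD_2 (0.068 to 0.0797) and the Fbn1 call without CD_2, CD_3, HFD_1 or HFD_2 (0.0862 to 0.118). Fbn1 was at -0.35 once the trend on gene length was removed (adjusted p = 0.133), and its call was also lost with no filter on low values (0.0751) and in a fit of the 2 groups alone (0.0558). Itgb3 was not past the threshold with no filter (0.0531). With the adipocyte and skeletal muscle covariates the calls of Itgb3 (0.204 and 0.209) and Fbn1 (0.166 and 0.148) were lost.

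**Figure D4:**
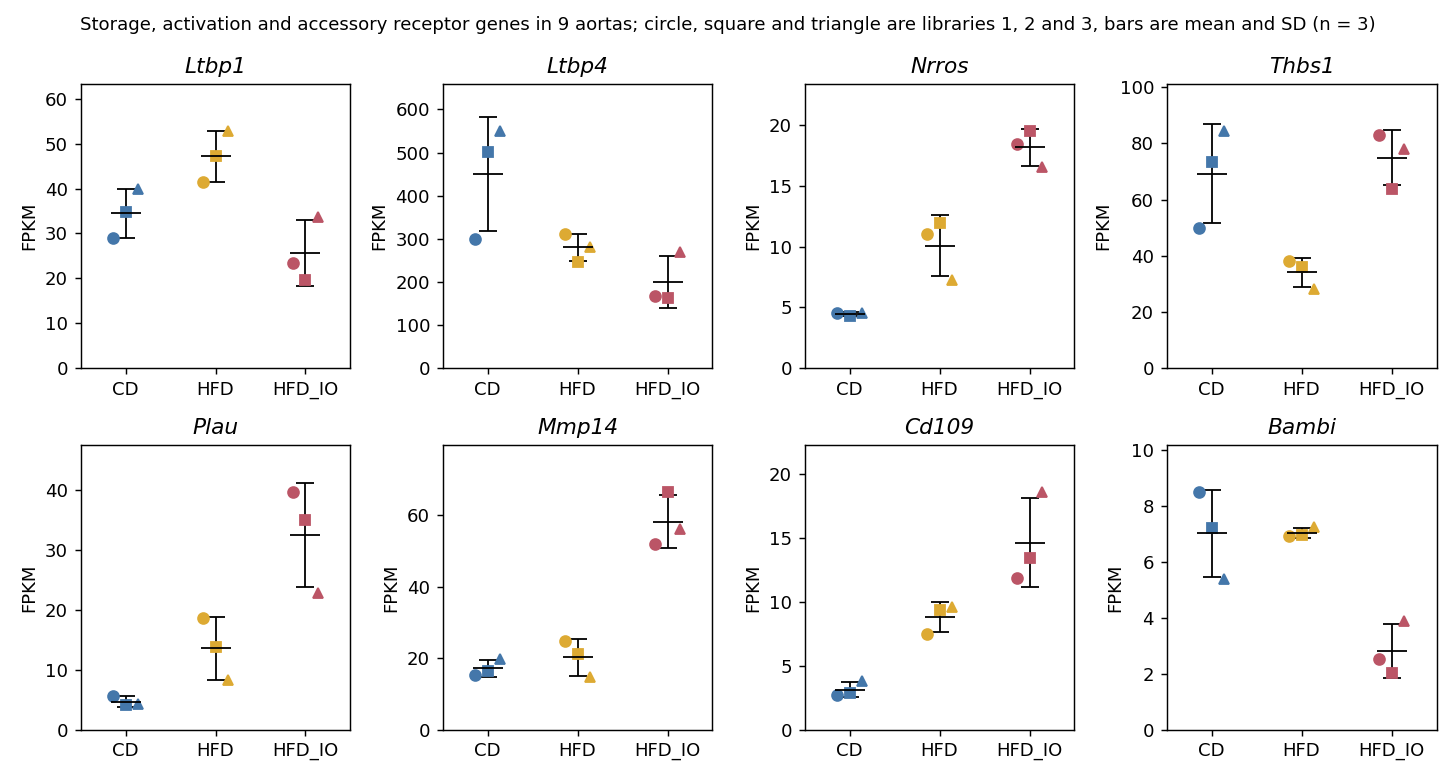
FPKM (vertical axes, starting at 0) by group of 8 genes of TGF-beta storage, activation and accessory reception, with points for single libraries and bars for the mean and SD of 3. Nrros, Plau and Cd109 are higher in HFD than in CD and higher again in HFD_IO, whereas Mmp14 and Bambi set only the HFD_IO aortas apart.

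The second list holds 12 accessory and related receptors, of which 10 were tested. Between HFD and CD 1 was higher and 4 were lower (median -0.09), in HFD_IO against HFD 3 and 2 (median 0.03), and in HFD_IO against CD 1 and 5 (median -0.16). The shares past the threshold were 50%, 50% and 60%, beside 39.4%, 28.6% and 32.5% of all genes. Cd109, a surface co-receptor that limits TGF-beta signalling, was at 2.70, 2.89 and 3.78 FPKM in CD aortas, 7.48, 9.38 and 9.61 in HFD, and 11.9, 13.5 and 18.6 in HFD_IO, with no overlap between groups. Cd109 rose by 1.25 in HFD against CD (adjusted p = 0.00129) and by 1.91 in HFD_IO against CD (adjusted p = 7.67e-05). The difference of 0.66 in HFD_IO against HFD (adjusted p = 0.0223) was lost without HFD_1 or HFD_IO_3 (0.0625 and 0.0582). It was also not past the threshold with no filter (0.056) or with the adipocyte or skeletal muscle covariate (0.0927 and 0.0781). Bambi, a pseudoreceptor that lacks the kinase and blocks the receptor complex, was at 8.48, 7.20 and 5.38 FPKM in CD aortas, 6.93, 6.95 and 7.24 in HFD, and 2.53, 2.03 and 3.88 in HFD_IO. It fell by 1.11 in HFD_IO against HFD (adjusted p = 0.00449) and by 1.08 in HFD_IO against CD (adjusted p = 0.00249).

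The next genes belong to the endothelial and bone morphogenetic protein receptors. Eng and Acvrl1, the endothelial co-receptor and type I receptor mutated in hereditary haemorrhagic telangiectasia, differed by -0.56 (adjusted p = 0.0325) and -0.42 (adjusted p = 0.0201) in HFD against CD, and by -0.55 (0.0395) and -0.38 (0.0339) in HFD_IO against CD. The sums of endothelial markers given above were lower in the same groups, and the part of endothelial content in these changes was not tested. Of the 10 markers, 8 were lower and 0 higher in HFD against CD. In HFD_IO against CD 4 were lower, 1 was higher and 5 were not past the threshold. The Eng calls were lost without CD_2, CD_3 or any of several other libraries (HFD_2 and HFD_3 in the first, HFD_3, HFD_IO_1 and HFD_IO_2 in the second, 0.0527 to 0.138). The Acvrl1 calls were lost without CD_2, CD_3 or HFD_2 in the first comparison and without CD_2, CD_3 or any HFD_IO library in the second (0.0574 to 0.121). Both Eng calls were lost with no filter (0.0664 and 0.0797). In HFD against CD the adipocyte and skeletal muscle covariates ended the calls of Eng (0.206 and 0.289) and Acvrl1 (0.0722 and 0.139). Bmpr2, a type II receptor, differed by -0.36 in HFD against CD (adjusted p = 0.00633) and by 0.37 in HFD_IO against HFD (adjusted p = 0.00863), and both differences were near 0 once the trend on gene length was removed (0.03 and 0.06). In HFD_IO against HFD the activin receptor gene Acvr1b differed by 0.57 (adjusted p = 0.0266) and Bmpr1a by -0.30 (adjusted p = 0.0301). The Acvr1b call was lost without HFD_2, HFD_3 or any HFD_IO library (0.0558 to 0.0837), and the Bmpr1a call without CD_3, HFD_2, HFD_3, HFD_IO_1 or HFD_IO_2 (0.0517 to 0.097) and after rescaling to TPM (-0.14, with 0.304). Tgfbr3, betaglycan, which presents TGF-beta2 to the type II receptor, passed no test (changes of 0.12, -0.12 and 0.00, adjusted p = 0.651, 0.666 and 0.991).

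All 8 Smad genes were tested. In HFD against CD 0 were higher and 3 lower (median -0.26), in HFD_IO against HFD 1 and 0 (median -0.08), and in HFD_IO against CD 0 and 3 (median -0.23). As shares of the list these were 37.5%, 12.5% and 37.5%, beside 39.4%, 28.6% and 32.5% of all genes. The signal carriers Smad2 and Smad4 did not pass the test in any comparison, with changes between -0.10 and 0.14. Smad3 was at 8.20 ± 0.154 FPKM in CD aortas, 6.59 ± 0.478 in HFD and 9.76 ± 1.59 in HFD_IO, and rose by 0.50 in HFD_IO against HFD (adjusted p = 0.013), a call lost with either covariate (0.0843 and 0.166). The inhibitory Smads were lower: Smad6 fell by 1.05 in HFD_IO against CD, from 37.0 ± 1.57 to 17.7 ± 4.30 FPKM (adjusted p = 0.00265). Smad7, which is induced by TGF-beta and blocks its type I receptor, was at 19.7 ± 6.38 in CD and 9.99 ± 1.75 in HFD_IO (-0.87, adjusted p = 0.0212, lost without CD_2, CD_3, HFD_IO_1 or HFD_IO_2, with 0.0536 to 0.081). Smad1, which carries bone morphogenetic protein signals, fell by 0.46 in HFD_IO against CD (adjusted p = 0.00534). In HFD against CD the calls of Smad6 (-0.70, adjusted p = 0.0174), Smad1 (-0.32, 0.0267) and Smad5 (-0.24, 0.0452) were each lost when single libraries were left out. These were CD_3, HFD_2 and HFD_3 for Smad6, CD_2, CD_3, HFD_1 and HFD_2 for Smad1, and every library other than CD_1 for Smad5, with adjusted p of 0.0507 to 0.14. Removal of the trend on gene length left Smad1 at -0.26 (0.0785) and Smad5 at -0.13 (0.258). The adipocyte and skeletal muscle covariates each ended the HFD against CD calls of Smad6, Smad1 and Smad5. Smad6 was then at -0.69 (0.0887) and -0.36 (0.22).

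Of 12 inhibitors of Smad signalling and related regulators 11 were tested. Between HFD and CD 2 were higher and 1 lower (median -0.08), in HFD_IO against HFD 1 and 0 (median 0.03), and in HFD_IO against CD 2 and 1 (median -0.04). This list thus had 27.3%, 9.09% and 27.3% past the threshold, beside 39.4%, 28.6% and 32.5% of all genes. Tgif1, a homeodomain co-repressor of Smad2 and Smad3, was at 2.32 ± 0.420 FPKM in CD aortas, 3.07 ± 0.551 in HFD and 7.10 ± 1.27 in HFD_IO. Tgif1 rose by 0.99 in HFD_IO against HFD (adjusted p = 0.00319) and by 1.28 in HFD_IO against CD (adjusted p = 0.000343). The ubiquitin ligase gene Nedd4l rose by 0.42 in HFD_IO against CD (adjusted p = 0.0114), a call lost after rescaling to TPM (0.0799). Skil, the co-repressor SnoN, fell by 0.36 in HFD against CD (adjusted p = 0.0111, and 0.183 once the length trend was removed) and was 0.33 lower in HFD_IO than in CD (adjusted p = 0.0175, lost without CD_2, CD_3 or HFD_IO_1, with 0.0545 to 0.061). Strap and Ppm1a were higher in HFD than in CD by 0.49 (adjusted p = 0.014) and 0.28 (adjusted p = 0.0334). After rescaling to TPM they were at 0.11 (0.48) and -0.08 (0.553), and the calls were lost without CD_3 or HFD_2 for Strap and without CD_1, CD_2, CD_3, HFD_2, HFD_3 or HFD_IO_2 for Ppm1a (0.0502 to 0.102).

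The last list holds 30 genes known as targets of TGF-beta and Smads, all tested, and its members moved in both directions. Between HFD and CD 9 were higher in HFD and 2 lower (median 0.18), in HFD_IO against HFD 3 and 6 (median 0.04), and in HFD_IO against CD 9 and 6 (median 0.03). Past the threshold were 36.7%, 30% and 50% of the list, beside 39.4%, 28.6% and 32.5% of all genes. Timp1, an inhibitor of matrix metalloproteinases, was at 31.7, 22.1 and 24.0 FPKM in CD aortas, 146, 162 and 166 in HFD, and 171, 193 and 172 in HFD_IO. It rose by 2.58 in HFD against CD (adjusted p = 3.59e-05) and by 2.75 in HFD_IO against CD (adjusted p = 8.25e-06). Fn1, fibronectin, rose from 104 ± 35.9 FPKM in CD to 248 ± 61.1 in HFD (1.28, adjusted p = 0.00991) and 352 ± 78.1 in HFD_IO (1.80 against CD, adjusted p = 0.00186). The first Fn1 call was not past the threshold after quantile normalization (0.81, with 0.0604) or with either covariate (0.0539 and 0.127). Sphk1, a kinase that makes sphingosine 1-phosphate, rose by 1.55 in HFD_IO against CD (adjusted p = 0.000201) and by 0.86 in HFD_IO against HFD (adjusted p = 0.00765, and 0.0585 and 0.0601 with the covariates).

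Eln, Lox and Tgfb1i1 were among the targets that fell. Eln, elastin, was at 524, 798 and 774 FPKM in CD aortas, 299, 249 and 205 in HFD, and 350, 210 and 283 in HFD_IO, and every CD aorta lay above all others. Eln fell by 1.47 in HFD against CD (adjusted p = 0.00246) and by 1.32 in HFD_IO against CD (adjusted p = 0.00313). Lox, which cross-links elastin and collagen, fell by 0.85 in HFD against CD (adjusted p = 0.00157). Tgfb1i1 (Hic-5), a focal adhesion protein of smooth muscle, fell by 0.94 in HFD_IO against CD (adjusted p = 0.00151), where the contractile markers had a lower sum as well. In HFD the contractile sum was higher than in CD, while Tgfb1i1 was at 51.2 FPKM beside 66.1 in CD (-0.37, adjusted p = 0.0773). Much of that sum was Acta2, with a mean of 4366 FPKM in CD and 5777 in HFD. Of the 10 contractile markers 2 were higher, 1 lower and 7 not past the threshold in HFD against CD. In HFD_IO against CD 8 were lower and 0 higher. The part of smooth muscle content in the Tgfb1i1 values was not tested.

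Id1 and Postn changed direction between the steps. Id1, a helix-loop-helix inhibitor that is a main target of bone morphogenetic protein signalling, was at 56.1, 57.1 and 75.6 FPKM in CD aortas, 95.1, 116 and 154 in HFD, and 26.0, 25.8 and 33.8 in HFD_IO, with no overlap. It rose by 0.93 in HFD against CD (adjusted p = 0.00719) and fell by 2.04 in HFD_IO against HFD (adjusted p = 0.000718) and by 1.11 in HFD_IO against CD (adjusted p = 0.00276). The rise was not past the threshold after quantile normalization (0.0501) or with either covariate (0.058 and 0.0984). Postn, periostin, a matrix protein of activated fibroblasts, was at 105 ± 10.6 FPKM in CD aortas and 177 ± 7.65 in HFD, and fell by 1.45 in HFD_IO against HFD to 65.7 ± 19.0 (adjusted p = 0.00175). The gene listed as Ctgf, now Ccn2, a classic target, differed by -0.95 in HFD_IO against HFD (adjusted p = 0.0239). That call was gone when HFD_2, HFD_3, HFD_IO_1 or HFD_IO_2 was left out (0.068 to 0.0825) and after quantile normalization (-0.63, with 0.0984). It was also lost with no filter (0.0918) and with either covariate (0.154 and 0.16). Cdkn1a and Junb were 0.79 (adjusted p = 0.0185) and 0.74 (adjusted p = 0.047) higher in HFD_IO than in HFD. The Cdkn1a call was lost without HFD_1, HFD_IO_2 or HFD_IO_3 (0.0505 to 0.0594), and the Junb call without CD_1, CD_3, HFD_3 or any HFD_IO library (0.0522 to 0.113). The fibrillar collagen genes Col1a1 (changes of -0.35, 0.03 and -0.32) and Col3a1 (0.11, -0.23 and -0.12) did not pass the test in any comparison. These 2 genes were named after their values were seen.

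**Figure D5:**
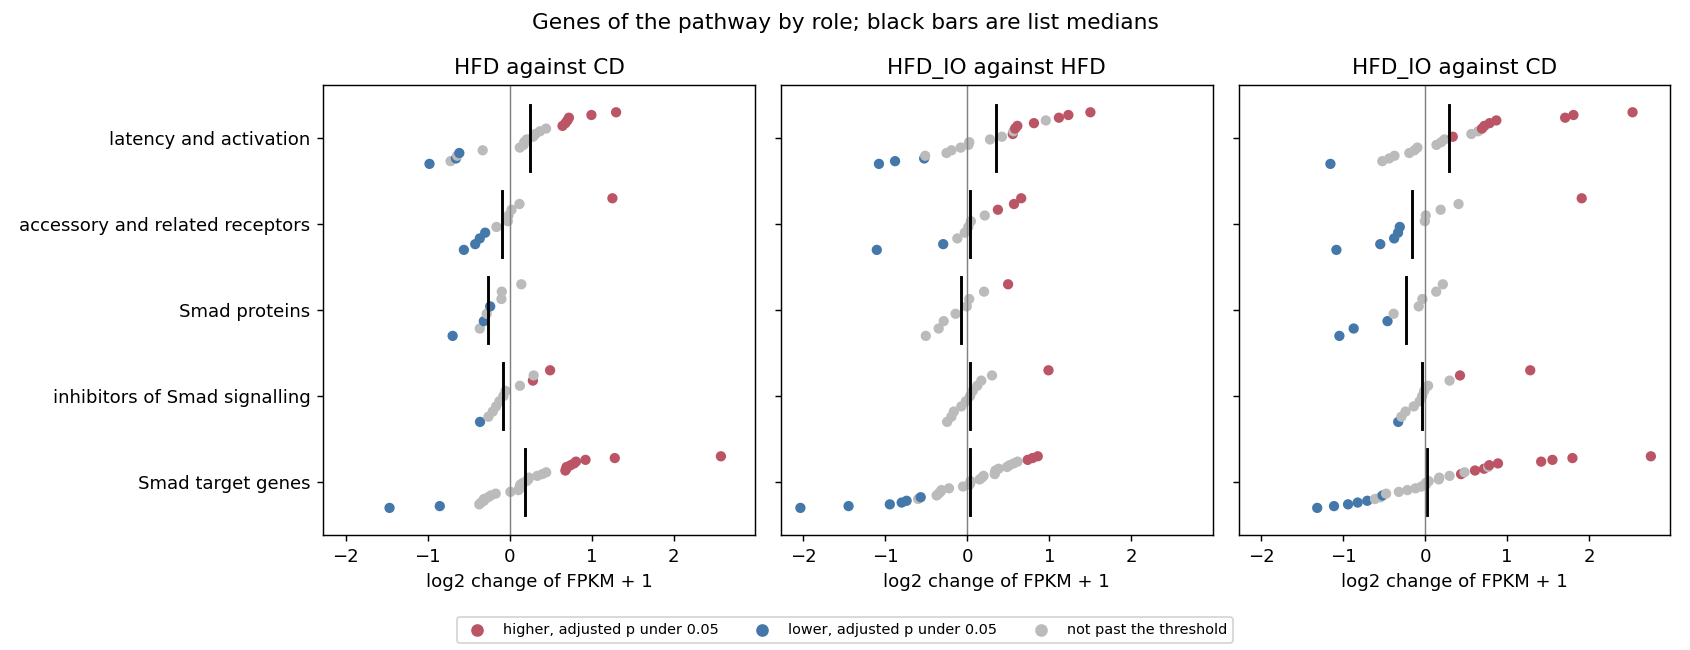
Log2 change of FPKM + 1 (horizontal axes) of each tested gene of the 5 pathway lists (rows) in the 3 comparisons (panels), coloured by the test, with list medians as black bars. Members of the target list lie on both sides of 0 in all 3 comparisons, and the list medians lie between -0.26 and 0.35.

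Over the 5 lists together 79 of 84 genes were tested. In HFD against CD 18 were higher and 13 lower (39.2%, beside 39.4% of all genes), in HFD_IO against HFD 15 and 11 (32.9%, beside 28.6%), and in HFD_IO against CD 20 and 16 (45.6%, beside 32.5%). Nothing is read from these shares about the lists. Of the named calls, 13 of 21, 12 of 19 and 0 of 20 in the same order of comparisons were lost with the adipocyte covariate, and 14 of 21, 14 of 19 and 0 of 20 with the skeletal muscle covariate. Named calls kept with both covariates were Plau, Nrros, Cd109, Timp1, Eln and Lox in HFD against CD. In HFD_IO against HFD they were Mmp14, Bambi, Tgif1, Id1 and Postn. A lost call was not always a smaller change. In HFD_IO against HFD, Cdkn1a was at 0.93 and 1.05 with the 2 covariates beside 0.79 without, and Sphk1 at 0.84 and 0.94 beside 0.86. The change of Plau was smaller with both, at 0.97 and 0.94 beside 1.23.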

How the data were processed

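RNA of 9 aortas was sequenced after extraction with a Qiagen column kit and NEBNext library preparation, per the labels' protocols. HISAT2 and the human build hg38 are named in the submitters' processing notes, yet 54409 of 54532 gene identifiers belong to the mouse annotation GENCODE M21, 98.3% of them at identical GRCm38 coordinates, the 7 genes described included. The sources used here do not name the counter or annotation. The authors deposited FPKM, 1 column per library, with a gene length for each gene. Column names show the group and a running number, which is absent from the sample labels. Multiplied by gene length, 100% of FPKM values above 0 came out as whole reads within 0.05 of a read, and the implied depth was proportional to median-of-ratios size factors.

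From these values log2(FPKM + 1) was computed for genes with FPKM of at least 1 in at least 3 libraries. All 9 libraries entered 1 linear model of 3 group means with a mean-variance trend (limma 3.58.1, R 4.3.3, two-sided, Benjamini-Hochberg over all 13883 genes of a comparison). The calculation was tested on simulated data. No pair of replicate libraries agreed within sampling noise (chi-square of recovered reads per degree of freedom of 6.41 or more). The genes and lists were chosen with earlier results of these data known. All 7 genes were named, and from each pathway list and comparison up to 3 rises and 3 falls past the threshold. All 176 listed symbols were found, 2 of them under an older symbol. The alternatives were pseudocounts of 0.1 and 0.01, no filter, an FPKM minimum of 5, TPM rescaling, quantile normalization, removal of the trend on gene length, no variance trend, voom on the recovered reads, a fit of 2 groups, protein-coding genes alone, adipocyte or skeletal muscle marker means as a covariate, and leaving out each library, 22 in all. Results for some genes are not reported here.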

Additional observations from a re-analysis of the deposited data

How the results depend on the processing

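The 7 genes gave 4, 4 and 6 calls in the comparisons HFD against CD, HFD_IO against HFD and HFD_IO against CD, in that order. With no filter on low values 2 and 2 were past it in the first 2 comparisons, after rescaling to TPM 2 in the first, with the adipocyte covariate 2 and 1, and with the skeletal muscle covariate 2 and 1. Leaving out single libraries gave 2 to 4 (2 without CD_2, HFD_2, HFD_3 or HFD_IO_2) and 1 to 4 (1 without HFD_3 or HFD_IO_2, 2 without HFD_1 or HFD_IO_3), and 6 without any library in the third. Of the pathway genes 31, 26 and 36 were past it. The adipocyte covariate left 15 and 8 in the first 2 comparisons and the skeletal muscle covariate 9 and 5, and leaving out libraries gave 17 to 34 (17 without HFD_2, 19 without CD_3, 20 without CD_2), 19 to 31 and 25 to 39. Of all genes 5470, 3969 and 4516 were past it. The adipocyte covariate left 2296 and 1183 in the first 2 comparisons and the skeletal muscle covariate 1747 and 791, and leaving out libraries gave 3712 to 6160, 2275 to 4944 (2275 without HFD_3, 2551 without HFD_IO_1, 2511 without HFD_IO_2) and 3045 to 5036. The cause was not tested. The sign turned in HFD against CD for Tgfb2 with the adipocyte covariate (0.020), for Tgfbr1, Tgfbr2 and Ppm1a after rescaling to TPM (-0.071, -0.038 and -0.084), for Bmpr2 after removal of the length trend (0.033) and for Tgfbi with the skeletal muscle covariate (0.041) and between left-out libraries (-0.12 to 0.13). In HFD_IO against HFD it turned for Tgfbi between left-out libraries (-0.042 to 0.20). In HFD_IO against CD it turned for Tgfbi after rescaling to TPM (-0.15), quantile normalization (-0.080) and removal of the length trend (-0.012). The log2 ratio of Tgfbr2 to Tgfbr1 in HFD against CD ranged from -0.16 (without CD_1) to 0.20, and the other ratios kept their direction. No paired analysis was made, because the labels name separate aortas and give no link between aortas of different groups.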
